A study of Rattus norvegicus with 12 samples.

Results

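The genes described here encode the enzymes that build cholesterol from acetyl-CoA, the proteins that switch those genes on when sterol is scarce, and a few proteins that move or store cholesterol. They were taken by gene symbol from a fixed list of 33 symbols, in which 3 genes stand under both an older and a newer symbol, so that 30 different genes were sought. The expression table held 26 of them, out of 14692 genes listed and 12388 with a value above 0 in any column. Tests used the 8459 genes that averaged 1 RPKM or more, and all 26 were among them. RPKM scales the reads on a gene by the length of its transcript and by the size of the library. It does not correct for a difference in make-up between columns, and the median gene ran from 8.68 to 14.25 RPKM over the 12 columns. Levels in different columns are compared with that limit, and counts were also taken with columns rescaled to a common median gene. MVK, SREBF1, NPC1L1 and NPC1 are on the list and were not analysed here.

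RNA of whole liver was sequenced from male Sprague Dawley rats of 4 to 5 months at 0, 4, 12 and 24 h after partial hepatectomy (PH), an operation that removes most of the liver and starts its regrowth. Every rat, controls included, had a duodenal catheter and received saline through it. The columns titled Cont came from rats with a sham biliary fistula, and the columns titled BA and BF came from rats whose bile was drained through a biliary fistula for 24 h before PH. In 1 of these fistula groups sodium taurocholate, a bile acid salt, was infused into the duodenum from 12 h before PH. The sources disagree on which group that is. The sample descriptions give the infusion to the columns titled BF and no bile to those titled BA, whereas the study's figures use BF for the fistula alone and BA for the fistula with infusion. The columns are therefore named by their titles only (Cont, BA and BF), and no difference between BA and BF can be assigned to the infusion or to its absence. To make each of the 12 columns the authors averaged 2 runs, 1 from 1 rat and 1 from the pooled RNA of 3 rats, so no column has a replicate or an error of its own, and the number of reads behind it is unknown. In whole liver, fewer cells of a type and less RNA per cell cannot be told apart.

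Cholesterol synthesis runs from acetyl-CoA through mevalonate to farnesyl diphosphate, then through squalene to lanosterol, and from lanosterol in many steps to cholesterol. Its genes are switched on by SREBP2, a membrane-bound transcription factor that the escort protein SCAP carries to the Golgi for cleavage when sterol in the endoplasmic reticulum is low, while the INSIG proteins hold the complex back when sterol is high. In the liver cholesterol is also the substrate from which bile acids are made.

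At many SREBP2 targets the transcription factors NF-Y, which binds CCAAT, and Sp1, which binds GGGCGG, act beside the sterol regulatory element. The 250 bases before the annotated start of the gene (RefSeq, build GRCr8) were available for 21 of the 26 members, 16 of them enzymes, and were searched on both strands. CCAAT was present in 17 of 21 windows (81.0%, against 34.0% of all 33469 promoter windows of that length) and GGGCGG also in 17 of 21 (81.0% against 30.5%). The letters CACNCCAC, a short form of the sterol regulatory element, were found in 3 windows, those of ACAT2, EBP and INSIG1 (14.3% against 4.89%). The longer form TCACNCCAC was found in 0 of 21 (0.974% of all windows). Members' windows had a median GC content of 63.2%, against 51.2% over all windows, and the part of GC content in these shares was not tested. A match is a string of letters and not a measured site, and a window without one says only that these letters are not in it. Of the 21 windows 10 lie partly or wholly inside the annotated span of their own gene, those of HMGCS1, SREBF2 and INSIG2 in full. Among the other 11, CCAAT was in 8 (72.7%, against 34.2% of 19339 such windows) and GGGCGG in 9 (81.8% against 24.9%). The 6 windows shown touch no annotated gene, and their genes carry the results that follow. SC4MOL (RefSeq Msmo1), CYP51, SC5DL (RefSeq Sc5d) and DHCR7 were higher over the BF than over the Cont columns, MVD had the third deepest fall at 4 h, and LBR followed another course. They lie at chr16:29746863-29747112 (plus strand), chr4:30991443-30991692 (plus strand), chr8:51538278-51538527 (minus strand), chr1:208444184-208444433 (plus strand), chr19:67414975-67415224 (minus strand) and chr13:96095710-96095959 (minus strand), and are written 5′ to 3′ along the gene's strand, so the last base is the one before the start. Capitals mark matches to the 3 shorter motifs on either strand, so that a CCAAT on the other strand reads ATTGG and a GGGCGG there reads CCGCCC. In DHCR7 and LBR a pair of GGGCGG matches overlap.
SC4MOL: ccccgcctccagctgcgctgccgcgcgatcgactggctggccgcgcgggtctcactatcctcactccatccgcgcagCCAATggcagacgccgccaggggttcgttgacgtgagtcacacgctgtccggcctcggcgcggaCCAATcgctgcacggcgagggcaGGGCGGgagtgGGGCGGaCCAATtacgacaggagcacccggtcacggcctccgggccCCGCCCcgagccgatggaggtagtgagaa
CYP51: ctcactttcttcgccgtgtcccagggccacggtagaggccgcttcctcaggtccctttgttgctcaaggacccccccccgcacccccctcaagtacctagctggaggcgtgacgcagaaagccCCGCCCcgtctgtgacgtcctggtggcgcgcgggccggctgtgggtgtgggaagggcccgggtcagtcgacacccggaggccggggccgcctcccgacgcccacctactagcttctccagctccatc
SC5DL: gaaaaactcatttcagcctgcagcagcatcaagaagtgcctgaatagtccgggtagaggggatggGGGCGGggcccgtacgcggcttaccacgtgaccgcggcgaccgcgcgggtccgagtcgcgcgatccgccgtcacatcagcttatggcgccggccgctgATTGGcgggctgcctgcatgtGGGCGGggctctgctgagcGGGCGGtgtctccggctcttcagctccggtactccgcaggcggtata
DHCR7: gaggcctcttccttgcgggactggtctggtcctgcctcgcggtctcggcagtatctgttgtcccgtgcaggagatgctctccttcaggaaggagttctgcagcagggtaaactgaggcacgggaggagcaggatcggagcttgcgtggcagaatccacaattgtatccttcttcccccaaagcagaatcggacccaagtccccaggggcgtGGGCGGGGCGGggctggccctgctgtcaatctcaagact
MVD: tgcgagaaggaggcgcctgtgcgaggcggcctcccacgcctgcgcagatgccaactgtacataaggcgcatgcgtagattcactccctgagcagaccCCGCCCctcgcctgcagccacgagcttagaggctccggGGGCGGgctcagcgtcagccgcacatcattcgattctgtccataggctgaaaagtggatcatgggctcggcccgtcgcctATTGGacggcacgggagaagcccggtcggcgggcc
LBR: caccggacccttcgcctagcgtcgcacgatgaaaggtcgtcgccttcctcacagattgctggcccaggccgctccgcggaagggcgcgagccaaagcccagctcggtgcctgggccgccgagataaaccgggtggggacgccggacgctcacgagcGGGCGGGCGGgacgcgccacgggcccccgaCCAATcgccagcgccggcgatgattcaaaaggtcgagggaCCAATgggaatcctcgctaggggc
The SC4MOL window held 3 CCAAT and 3 GGGCGG matches, and LBR, whose course differed from that of the other enzymes, held 2 of each. The CYP51 and DHCR7 windows held GGGCGG only.

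A pair of columns stood apart from the rest. In the BA column at 4 h, ALB (albumin) made up 30.9% of the summed RPKM, against 5.6% to 13.4% in the other 11 columns, and the median gene was at 8.68 RPKM, the lowest of the 12 columns. In the BF column at 12 h, 10 of 10 pancreatic acinar markers were listed and summed to 144.5 RPKM, against 5.22 to 23.4 RPKM elsewhere, led by CTRB1 at 84.7 RPKM. CELA1 was not raised there, at 6.03 RPKM against 3.16 to 22.5 RPKM elsewhere, and it made up most of the sum in the other columns. Each of the other acinar markers had its highest value in this column. Of 6 hepatocyte markers 5 were listed, and ALB was at 41049 RPKM or more in every column. Where leaving out either column ended the call of a member, the value without it stands beside the result. Ratios of single columns in BA at 4 h and in BF at 12 h rest on these columns alone.

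The 26 members together took between 0.198% and 0.635% of the summed RPKM of a column. Their sum was 2327 RPKM in the Cont column at 0 h and 1450, 1474 and 1623 RPKM at 4, 12 and 24 h. The BA columns held 4882 RPKM at 0 h and 2115, 1673 and 2574 RPKM thereafter, and the BF columns 4196, 2463, 2231 and 3621 RPKM. Both fistula columns thus started well above Cont, all 3 prefixes were lower at 4 and 12 h than at 0 h, and BF came back furthest by 24 h. By mean level over the 12 columns the members spanned a wide range, from SOAT1 at 1.93 RPKM to FDPS at 345.8 RPKM, and 16 of the 26, among them 14 of 19 enzymes, had their highest column in BA at 0 h.

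**Figure D1:**
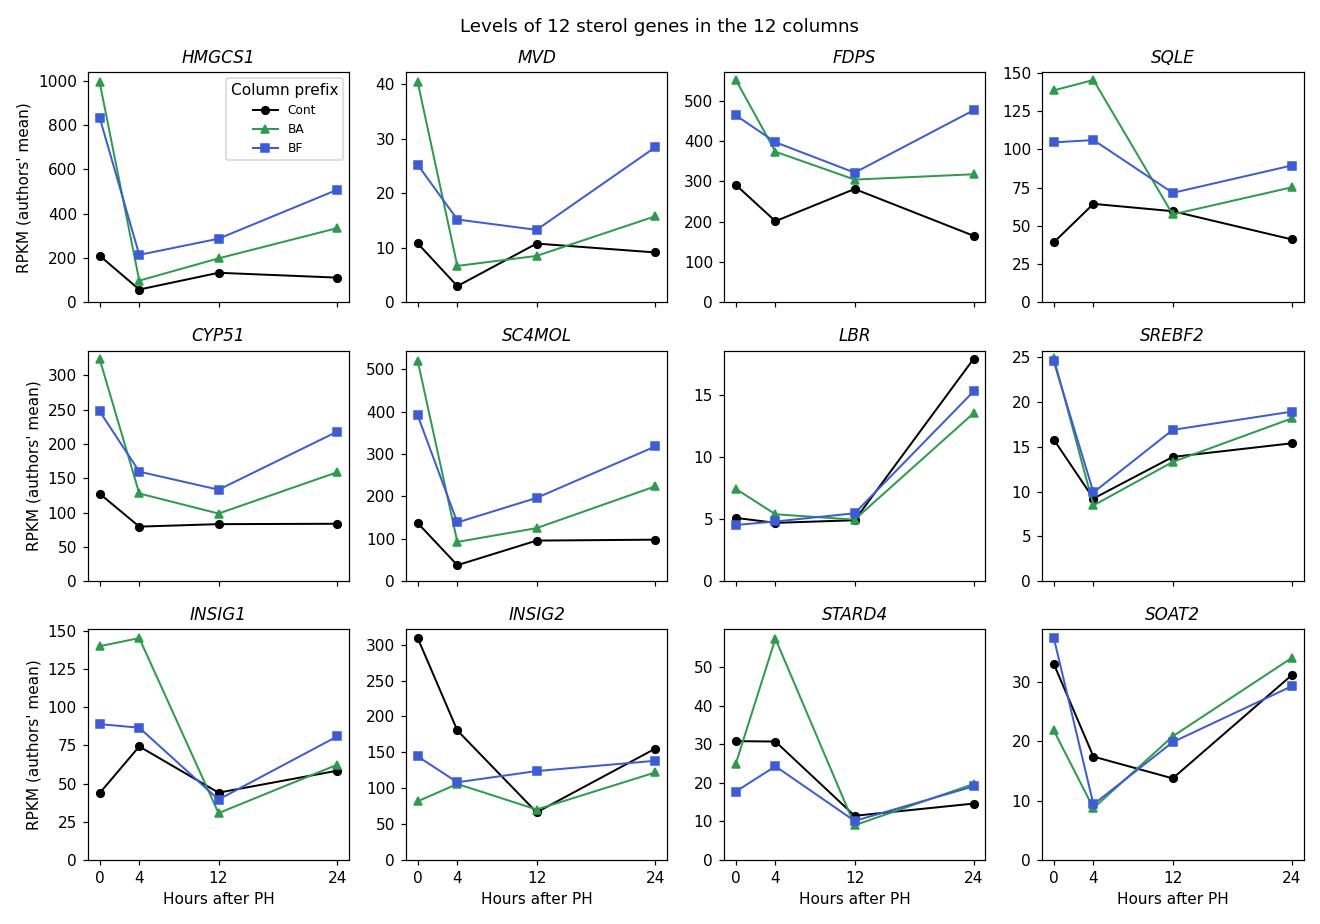
RPKM of 12 sterol genes against hours after PH, with 1 point per column (Cont circles, BA triangles, BF squares; each the authors' mean, so without error bars). HMGCS1 went from 992 RPKM in BA and 833 RPKM in BF at 0 h to 98.2 and 214 RPKM at 4 h, whereas SQLE was not lower at 4 h under any prefix.

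To ask how the course after PH ran, the 3 columns of each hour were set against the 3 of 0 h in a limma fit over all 8459 genes on log2(RPKM + 1), additive in prefix and hour, with Benjamini-Hochberg adjusted p-values called under 0.05. The columns of an hour come from differently treated rats and are not replicates of 1 condition. The standard error therefore measures departure from a common course (6 residual degrees of freedom) and holds any real difference in course between the prefixes.

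At 4 h after PH, 13 of the 26 members fell and 0 rose, while 32.4% of all genes tested fell and 12.9% rose. The members' median fitted change was -0.69 on the log2 scale, against -0.20 over all genes, and 22 of 26 were below 0. The falls were led by HMGCS1 (-2.37 ± 0.30, SE, limma adjusted p = 0.0006) and SC4MOL (-1.93 ± 0.25, limma adjusted p = 0.00066). Without the 4 BA columns 8 members were called, where 2155 of all 8459 genes were called in either direction, so this count is near that share. Without the BA column at 4 h alone 11 were called, against 2817 of all genes.

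At 12 h 15 members fell and 0 rose, where 22.5% of all genes fell and 9.03% rose. The median of the members was -0.91 against -0.12 over all genes, and all 26 fitted changes were below 0 (24 of 26 when columns were rescaled to a common median gene). SC5DL (-1.27 ± 0.13, SE, limma adjusted p = 0.00052) and FDFT1 (-1.22 ± 0.19, limma adjusted p = 0.0024) had the lowest p-values. Without the 4 BF columns 9 were called, where 1143 of all 8459 genes were called in either direction. Without the BF column at 12 h, where the pancreatic markers were high, 14 were called, against 2016 of all genes.

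By 24 h 5 members were still lower than at 0 h and 1, LBR, was higher, in a comparison where 5.54% of all genes fell and 30.6% rose. The median member stood at -0.37, against +0.21 for the median gene. The 5 were HMGCS1 (-1.06), TM7SF2 (-0.86), FDFT1 (-0.76), SC5DL (-0.73) and CYP51 (-0.60). After rescaling, which took the median gene from +0.21 to -0.08, 12 members were called, 11 of them lower. In that setting 2322 of all 8459 genes were called in either direction, in place of 3056. Leaving out the 4 columns of Cont, BA or BF left 3, 2 and 3 calls, where 869, 2583 and 752 of all genes were called. These counts are near that share or below it. Without the BF column at 12 h alone 5 were called, against 2857 of all genes.

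**Figure D2:**
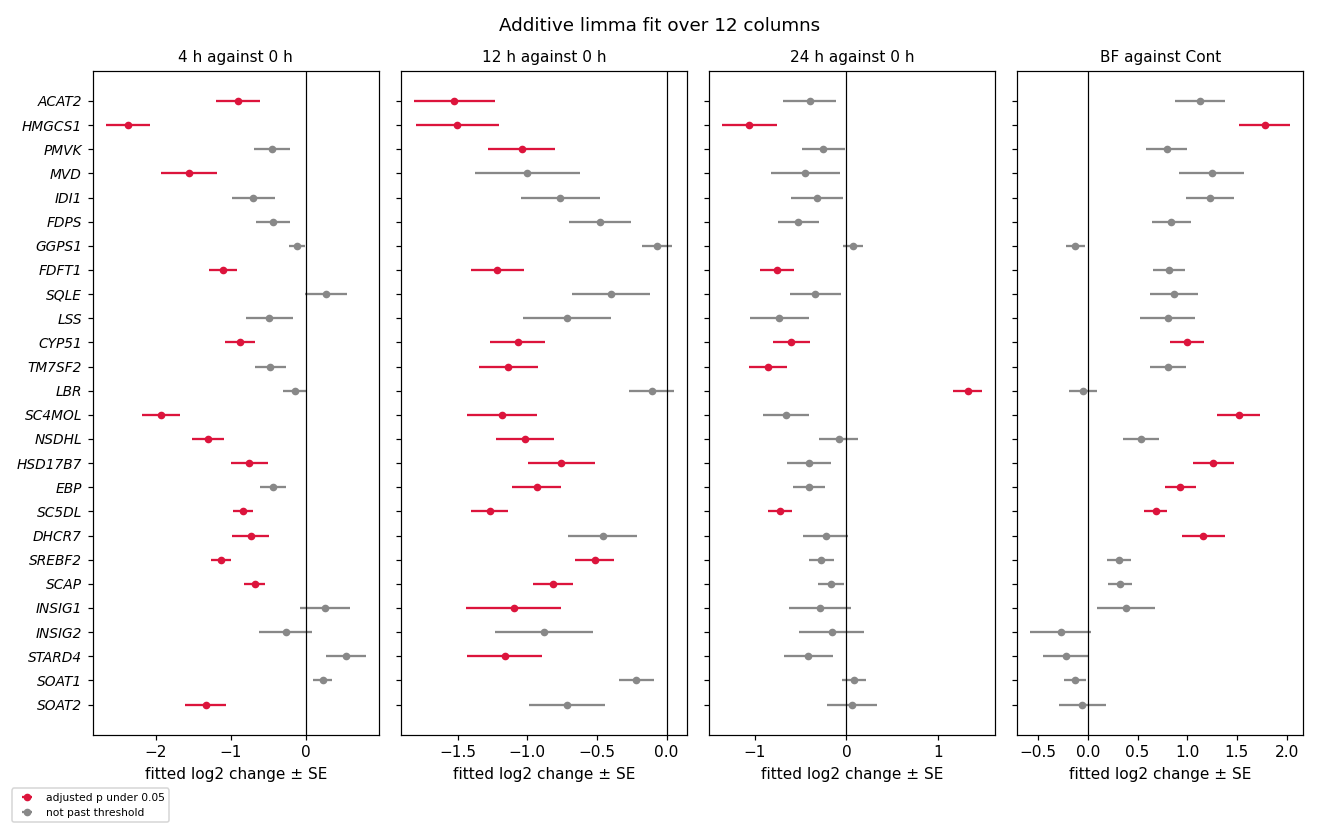
Fitted log2 change with its standard error (limma, additive in prefix and hour, 12 columns) for each of the 26 members at 4, 12 and 24 h against 0 h and for BF against Cont, with changes of adjusted p under 0.05 in red. Most points lie left of 0 at 4 and 12 h, and LBR at 24 h is the 1 call above 0 among the time contrasts.

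Among the 7 genes of the mevalonate steps, 3 fell at 4 h, 3 at 12 h and 1 at 24 h. Of all genes 32.4%, 22.5% and 5.54% fell at these hours, so the count at 4 h, on few genes, is near that share. HMGCS1, the cytosolic synthase that makes HMG-CoA, had the widest range of all members, 17.1-fold between its lowest and highest column. At 0, 4, 12 and 24 h it was at 211, 58.0, 134 and 112 RPKM in the Cont columns, 992, 98.2, 199 and 335 RPKM in BA and 833, 214, 287 and 508 RPKM in BF. The 4 h column was the lowest under each prefix, and at 24 h none had regained its 0 h level. MVD, which makes isopentenyl diphosphate, was at 10.8, 2.98, 10.8 and 9.14 RPKM in the Cont columns, 40.3, 6.68, 8.51 and 15.8 RPKM in BA and 25.2, 15.2, 13.3 and 28.4 RPKM in BF. Its 4 h fall was called (-1.56 ± 0.38, SE, limma adjusted p = 0.0091) although BF was much less reduced than Cont and BA. ACAT2, the thiolase of the first step, which the table lists apart from SOAT2, was at 18.4, 11.5, 9.40 and 16.0 RPKM in the Cont columns, 69.7, 21.5, 14.5 and 26.5 RPKM in BA and 40.4, 29.4, 13.8 and 51.4 RPKM in BF. Its fall was called at 4 h (-0.91) and at 12 h (-1.52), and in BF the level at 24 h was above that at 0 h as deposited. Such returns in BF depend on the scaling. Of the 26 members, 11 were above their 0 h level in BF at 24 h as deposited, and 1 when columns were rescaled to a common median gene. The 4 h call was lost without the BA column at 4 h (limma adjusted p = 0.11) and narrowly without the filter on low values (0.053).

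Phosphomevalonate kinase, PMVK, was at 41.2, 34.0, 31.9 and 36.5 RPKM in the Cont columns, 91.0, 52.9, 29.3 and 51.1 RPKM in BA and 78.1, 62.4, 34.4 and 92.2 RPKM in BF. It was called only at 12 h (-1.04 ± 0.24, SE, limma adjusted p = 0.011). IDI1, the isopentenyl diphosphate isomerase, was at 57.2, 30.4, 51.7 and 41.8 RPKM in the Cont columns, 161, 80.0, 69.2 and 88.6 RPKM in BA and 121, 104, 62.4 and 152 RPKM in BF, and none of its time contrasts was called (-0.70, -0.76 and -0.32 at 4, 12 and 24 h). FDPS, which makes farnesyl diphosphate, was the most abundant member and was at 292, 202, 281 and 165 RPKM in the Cont columns, 553, 374, 305 and 318 RPKM in BA and 464, 397, 322 and 477 RPKM in BF, likewise with no call. GGPS1, which leads to geranylgeranyl groups for protein prenylation and away from sterols, was at 3.08 to 4.45 RPKM in all 12 columns, a 1.44-fold range, the narrowest of the 26. GGPS1 is the 1 enzyme of this stretch outside the path to cholesterol, and its fitted changes were -0.12, -0.07 and 0.07.

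Of the 3 genes between farnesyl diphosphate and lanosterol, 1 fell after PH and the other 2 had no called time contrast. Of all genes 32.4%, 22.5% and 5.54% fell at 4, 12 and 24 h, so 1 of 3 is near the share at 4 h. FDFT1, squalene synthase, was at 76.7, 43.5, 49.6 and 48.15 RPKM in the Cont columns, 159.6, 61.9, 45.9 and 76.2 RPKM in BA and 159, 70.3, 66.0 and 107 RPKM in BF. It fell at all 3 hours, with fitted changes of -1.11, -1.22 and -0.76. SQLE, squalene epoxidase, was at 39.2, 64.4, 59.6 and 41.2 RPKM in the Cont columns, 139, 145, 57.5 and 75.2 RPKM in BA and 105, 106, 71.55 and 89.4 RPKM in BF. It was higher at 4 h than at 0 h under each prefix, by little in the fistula columns, and no contrast was called (0.26 ± 0.28, SE, limma adjusted p = 0.46 at 4 h). LSS, lanosterol synthase, was at 31.45, 28.05, 41.3 and 24.9 RPKM in the Cont columns, 107, 54.1, 31.2 and 37.7 RPKM in BA and 70.9, 56.3, 41.1 and 54.0 RPKM in BF, and its time contrasts were not called (-0.49, -0.71 and -0.73). At 12 h SQLE and LSS were above their 0 h level in Cont and below it in BA and BF.

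Of the 9 genes from lanosterol to cholesterol, 6 fell at 4 h and 7 at 12 h, and 3 were still lower at 24 h. Of all genes 32.4%, 22.5% and 5.54% fell at these hours. SC4MOL, the sterol methyl oxidase that starts removal of the methyl groups at carbon 4, was at 137, 37.7, 95.8 and 97.9 RPKM in the Cont columns, 520.2, 92.6, 125 and 224 RPKM in BA and 391, 139, 197 and 318 RPKM in BF. Its lowest column was 4 h under each prefix, as for HMGCS1. CYP51, the lanosterol demethylase, was at 128, 79.5, 83.1 and 83.7 RPKM in the Cont columns, 324, 128, 98.6 and 159 RPKM in BA and 248, 159.7, 133 and 218 RPKM in BF. It fell at all 3 hours (-0.88, -1.07 and -0.60). The last was not called without the BF column at 12 h (limma adjusted p = 0.055) or without the filter on low values (0.06). NSDHL, the sterol dehydrogenase of the demethylation at carbon 4, was at 278, 135, 130.2 and 266 RPKM in the Cont columns, 396, 94.8, 169 and 332 RPKM in BA and 358, 202, 215 and 373 RPKM in BF. NSDHL fell at 4 h (-1.30 ± 0.21, SE, limma adjusted p = 0.0015) and 12 h (-1.02), and at 24 h it stood close to its 0 h level in Cont and BF as deposited. HSD17B7, the reductase that finishes the demethylation, was at 13.65, 11.6, 13.1 and 11.2 RPKM in the Cont columns, 50.9, 18.8, 16.3 and 28.7 RPKM in BA and 40.1, 25.2, 25.7 and 35.7 RPKM in BF, with calls at 4 h (-0.75) and 12 h (-0.75). Neither HSD17B7 call is firm, since limma adjusted p was 0.12 at 4 h without the BA column of that hour and 0.092 at 12 h without the BF column of that hour, and 0.064 and 0.077 after rescaling. Without the filter on low values limma adjusted p was 0.052 at 4 h and 0.068 at 12 h.

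The 3 enzymes that act on the sterol nucleus after demethylation were called at different hours. EBP, the sterol isomerase, was at 178, 139, 115 and 129.8 RPKM in the Cont columns, 319, 210.3, 113 and 191 RPKM in BA and 319, 249.7, 199 and 312 RPKM in BF, and was called at 12 h only (-0.93). SC5DL, the sterol desaturase, was at 222, 149.8, 104 and 135 RPKM in the Cont columns, 377, 181, 126 and 196 RPKM in BA and 372, 199, 166 and 257 RPKM in BF. It fell at 4, 12 and 24 h (-0.84, -1.27 and -0.73), and in all 3 prefixes the 12 h column was the lowest. DHCR7, the reductase that makes cholesterol from its last precursor, was at 47.2, 25.1, 56.8 and 46.8 RPKM in the Cont columns, 117, 66.2, 55.3 and 74.0 RPKM in BA and 116, 81.0, 77.9 and 114 RPKM in BF. It was called at 4 h only (-0.74), a call lost on rescaling (limma adjusted p = 0.092) and without the filter on low values (0.059).

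TM7SF2 and LBR both encode reductases that work on the CYP51 product, and at 24 h they had changed in opposite directions. TM7SF2 was at 81.7, 62.5, 34.3 and 38.0 RPKM in the Cont columns, 125, 72.8, 42.7 and 47.4 RPKM in BA and 108, 88.9, 68.15 and 99.1 RPKM in BF, and was lower at 12 h (-1.14 ± 0.21, SE, limma adjusted p = 0.0046) and 24 h (-0.86). LBR, the lamin B receptor, which is also a protein of the inner nuclear membrane, was at 5.09, 4.69, 4.90 and 17.9 RPKM in the Cont columns, 7.43, 5.38, 4.95 and 13.5 RPKM in BA and 4.52, 4.80, 5.46 and 15.3 RPKM in BF. All 9 LBR columns from 0 to 12 h lay between 4.52 and 7.43 RPKM, and the 24 h columns between 13.5 and 17.9 RPKM, with no overlap. How many of all genes separate in this way was not counted. LBR rose by 1.32 ± 0.16 (SE, limma adjusted p = 0.00067) at 24 h, in a comparison where 30.6% of all genes rose.

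**Figure D3:**
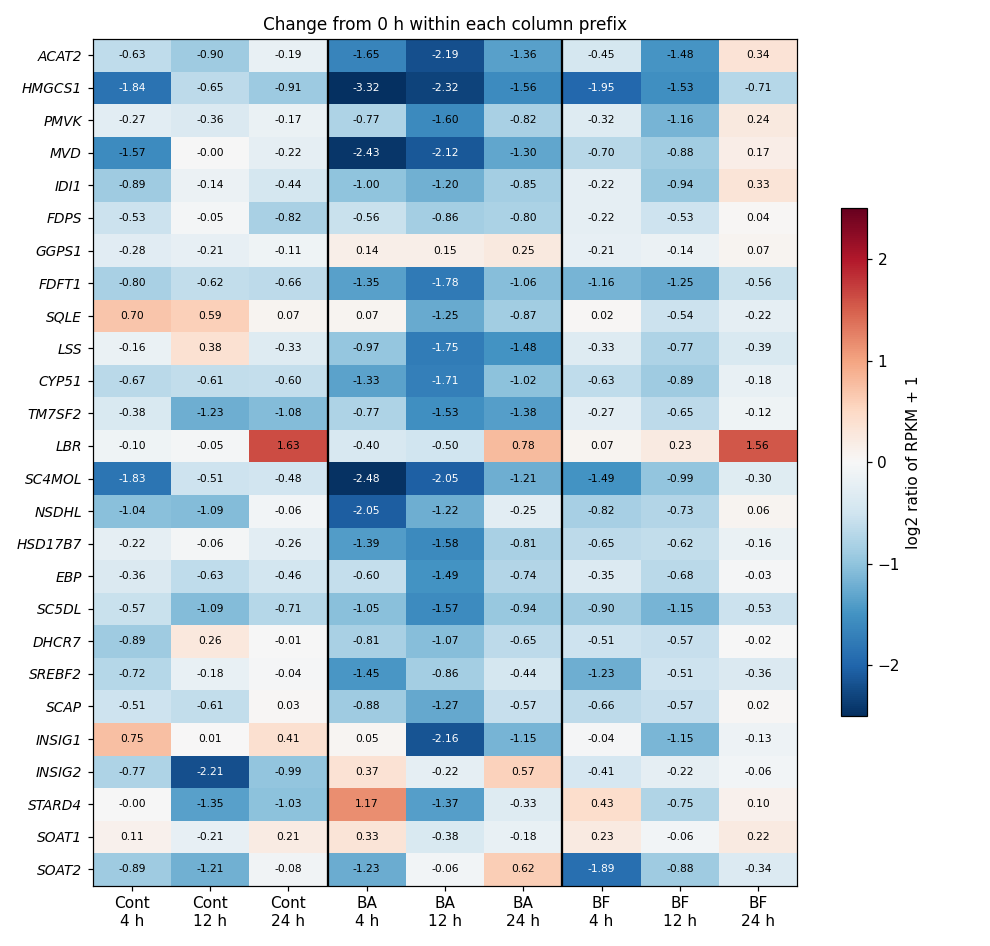
Log2 ratio of RPKM + 1 at 4, 12 and 24 h to the 0 h column of the same prefix for the 26 members, blue where lower and red where higher; each cell compares 1 column with 1 column. The BA block is darkest at 12 h, where 19 of 26 members were at least 2-fold lower, and LBR at 24 h stands out in red.

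Among the regulators, SREBF2, which encodes SREBP2, was at 15.8, 9.22, 13.9 and 15.4 RPKM in the Cont columns, 24.9, 8.45, 13.3 and 18.15 RPKM in BA and 24.5, 9.90, 16.9 and 18.9 RPKM in BF. The 3 columns at 4 h, 8.45 to 9.90 RPKM, lay below the other 9, which ran from 13.3 to 24.9 RPKM. The share of all genes that separate in this way was not counted. SREBF2 fell at 4 h, with a fitted change of -1.13 ± 0.14 (SE, limma adjusted p = 0.00056) and was closer to 0 h at 12 h (-0.52), where the call was lost on rescaling (limma adjusted p = 0.062). SCAP, the escort of SREBP2, was at 20.1, 13.8, 12.8 and 20.55 RPKM in the Cont columns, 34.1, 18.03, 13.6 and 22.7 RPKM in BA and 25.9, 16.0, 17.1 and 26.35 RPKM in BF, and fell at 4 h (-0.69) and 12 h (-0.82). INSIG1, itself a target of SREBP2, was at 43.7, 74.3, 44.0 and 58.4 RPKM in the Cont columns, 140.0, 145, 30.65 and 62.4 RPKM in BA and 88.9, 86.6, 39.5 and 80.95 RPKM in BF. It was not lower at 4 h (0.26 ± 0.34, SE, limma adjusted p = 0.56) and fell at 12 h (-1.10 ± 0.34, limma adjusted p = 0.036). This call was lost without the BF column at 12 h (limma adjusted p = 0.087), without the filter on low values (0.062) and on rescaling (0.067). At 12 h INSIG1 was below its 0 h level in BA and BF and at it in Cont. INSIG2, whose product shares the role of INSIG1, was at 309, 181, 66.3 and 155 RPKM in the Cont columns, 81.7, 106, 70.3 and 122 RPKM in BA and 144, 108, 124 and 138 RPKM in BF. The Cont column at 0 h was the highest of the 12, and INSIG2 was the 1 regulator higher in Cont than in both fistula columns before PH. No INSIG2 contrast was called (limma adjusted p = 0.088 at 12 h, with a fitted change of -0.88).

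The 3 genes of sterol transport and esterification had courses of their own. STARD4, a cytosolic sterol carrier, was at 30.85, 30.75, 11.5 and 14.6 RPKM in the Cont columns, 25.0, 57.5, 9.01 and 19.7 RPKM in BA and 17.75, 24.3, 10.1 and 19.1 RPKM in BF. The BA column at 4 h, the one in which ALB stood apart, was its highest. STARD4 fell at 12 h (-1.16 ± 0.27, SE, limma adjusted p = 0.012), and the 12 h column was its lowest under each prefix. SOAT2, the enzyme that esterifies cholesterol in hepatocytes, was at 33.0, 17.4, 13.7 and 31.1 RPKM in the Cont columns, 21.8, 8.71, 20.8 and 34.0 RPKM in BA and 37.4, 9.35, 19.8 and 29.25 RPKM in BF. It fell at 4 h (-1.34 ± 0.27, SE, limma adjusted p = 0.0045) and was near its 0 h level at 24 h (0.06). SOAT1, the related enzyme of many other cells, lay between 1.41 and 2.93 RPKM in all columns, and no contrast was called.

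The depth of the decline differed between the prefixes in size, though each of these comparisons sets 1 column against 1 and has no test. At 4 h, members at least 2-fold lower than at 0 h numbered 4 in Cont (5.19% of all genes), 11 in BA (13.2%) and 5 in BF (6.92%). At 12 h they numbered 6 in Cont (9.94%), 19 in BA (5.77%) and 6 in BF (5.15%). At 24 h they were 2 in Cont (3.03%), 9 in BA (1.41%) and 0 in BF (1.88%). Members at least 2-fold higher than at 0 h were STARD4 in BA at 4 h (4.61% of all genes) and LBR at 24 h in Cont (8.29%) and BF (9.27%). After rescaling, members past 2-fold in either direction at 24 h were 7 in Cont, 15 in BA and 2 in BF, in place of 3, 9 and 1. Rescaling took the median gene from 0.21 to -0.09 in Cont, from 0.15 to -0.07 in BA and from 0.28 to -0.08 in BF. The share of all genes past 2-fold in that setting is not given here. BA had the highest levels at 0 h for most members and the largest number of 2-fold declines at each hour. All members of a prefix share its 0 h column, so these counts are not independent of each other.

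The hour of the lowest level was mostly 12 h in the fistula columns and was spread in Cont. Of the 26 members, 19 were lowest at 12 h in BA and 16 in BF, against 11 in Cont. In Cont 10 members were lowest at 4 h, in BF 9 and in BA 6. HMGCS1, SC4MOL and SREBF2 were lowest at 4 h under every prefix. From 12 to 24 h all 26 members were higher in BA and all 26 in BF, against 17 in Cont, while the median gene moved by 0.28, 0.35 and 0.37 in these prefixes. After rescaling on the median gene these counts were 19, 20 and 7. The members' median over this step was 0.71 in BA, 0.64 in BF and 0.14 in Cont as deposited, and 0.31, 0.18 and -0.37 after rescaling, so the direction in Cont turned with the scaling.

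Before PH the fistula columns held more RNA of most members than Cont did. In BF at 0 h, 11 of 26 members were at least 2-fold above Cont (1.73% of all genes were) and 1 was at least 2-fold below (2.16%). The BA column had 13 above (1.87%) and 1 below (2.15%). The same Cont column serves both comparisons. HMGCS1 had the largest ratio in each, 1.98 in BF and 2.23 in BA on the log2 scale, followed in BA by SC4MOL at 1.92, ACAT2 at 1.87 and HSD17B7 at 1.82. The member below Cont was INSIG2, at -1.09 in BF and -1.91 in BA.

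After PH the fistula columns came nearest to Cont at 12 h and parted from it again at 24 h. At 4 h, 7 members were at least 2-fold above Cont in BF (1.19% of all genes) and 4 in BA (2.02%). At 12 h this held for 2 in BF (1.84%), HMGCS1 and SC4MOL, and for 0 in BA (0.591%). At 24 h it held for 15 in BF (0.768%) and 4 in BA (0.721%), the latter being HMGCS1, HSD17B7, SC4MOL and IDI1. At these hours 0 members were 2-fold below Cont, where 3.16%, 1.68% and 1.31% of all genes were in BF and 5.26%, 1.12% and 1.32% in BA. Rescaled, the counts in BA were 10 at 4 h and 7 at 24 h, for which the share of all genes is not given. All 15 members that were 2-fold higher in BF at 24 h are enzymes, and the 4 enzymes not among them were GGPS1, LBR, NSDHL and SC5DL.

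**Figure D4:**
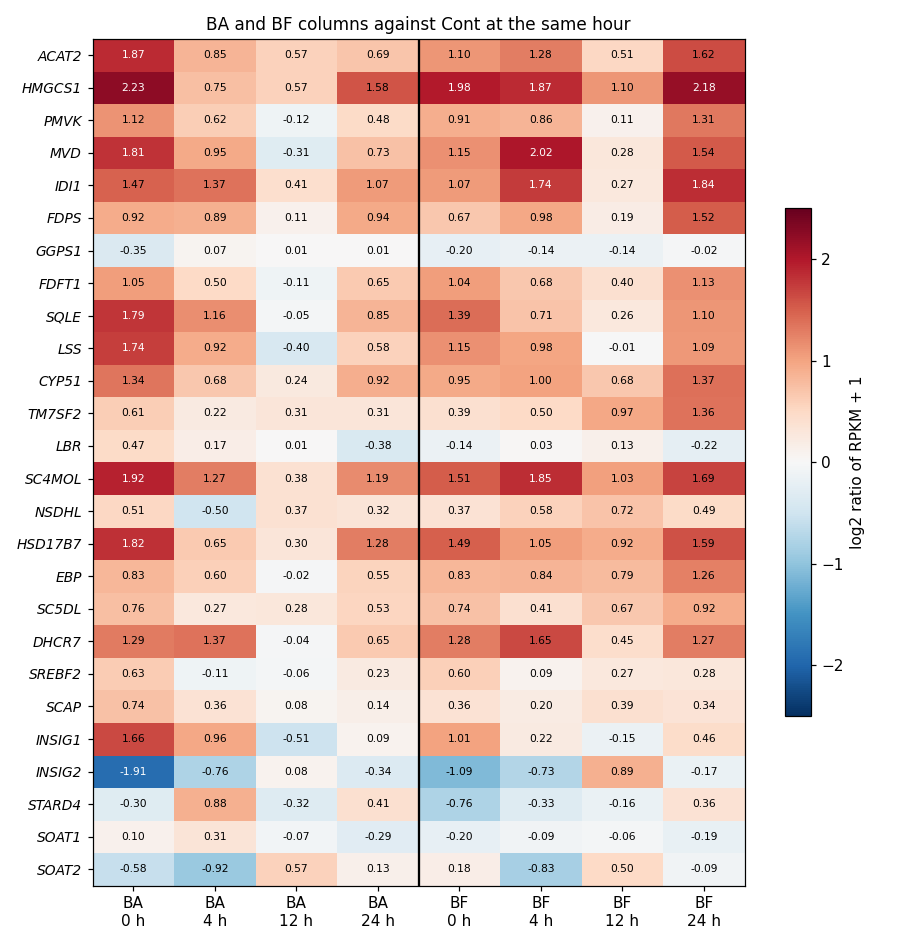
Log2 ratio of RPKM + 1 of the BA and BF columns to the Cont column of the same hour for the 26 members, red where higher than Cont; each cell compares 1 column with 1 column. Red is deepest at 0 h in BA and at 0, 4 and 24 h in BF, and the 12 h columns are the palest, with 0 members past 2-fold in BA and 2 in BF.

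Over the 4 hours together, 7 members were higher in BF than in Cont in the limma fit and 0 were lower, where 0.319% of all genes were called higher and 0.485% lower. The members' median was 0.80 against -0.11 over all genes. The 7 were HMGCS1 (1.78 ± 0.26, SE, limma adjusted p = 0.024), SC4MOL (1.52 ± 0.22, limma adjusted p = 0.023), HSD17B7 (1.26), DHCR7 (1.16), CYP51 (1.00), EBP (0.93) and SC5DL (0.68). Of these, 6 act between lanosterol and cholesterol. Their adjusted p-values lay between 0.023 and 0.05, just inside the threshold. The count was 0 without the filter on low values, 0 without the BF column at 12 h, 4 without the BA column at 4 h, 0 without the columns of 0, 4 or 24 h and 4 without those of 12 h, so the calls are not stable. The fitted difference of HMGCS1 ranged from 1.65 to 2.01 in these fits. In the columns themselves 18 of the 26 members, among them 16 of 19 enzymes, were above Cont in BF at all 4 hours. The share of all genes above Cont in BF at all 4 hours was not counted.

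In BA against Cont 0 members were called, where 0.0709% of all genes were called in either direction. At an unadjusted p under 0.05 the limma fit gave 17 members, where 22.7% of all genes passed, and the median was 0.52 against -0.14 over all genes. HMGCS1 had a fitted difference of 1.28 ± 0.26 (SE, limma adjusted p = 0.084) and SQLE of 0.94 ± 0.24 (limma adjusted p = 0.11). In the columns 10 members were above Cont in BA at all 4 hours and 11 at 3 of them. For 8 of these 11, among them MVD, FDFT1, LSS and DHCR7, the exception was 12 h. The share of all genes above Cont in BA at all 4 hours was not counted. Whether the BF and BA differences from Cont are themselves different is read from BF against BA.

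BF against BA gave 0 called members, where 0.0118% of all genes were called, and 2 at an unadjusted p under 0.05, where 7.81% of all genes passed in the limma fit. Without the BA column at 4 h or without the BF column at 12 h, 0 members were called in this comparison and in BA against Cont. The median was 0.18 against 0.03 over all genes, and HMGCS1 differed by 0.50 ± 0.26 (SE, limma adjusted p = 0.68). The order of the columns changed with the hour. At 0 h 4 members were higher in BF than in BA and 22 lower, with a median of -0.28. At 12 h 22 were higher and 4 lower (0.35), and at 24 h 23 were higher and 3 lower (0.42). The 4 h columns gave 19 higher and 7 lower, but there the median gene was also higher, by 0.15, and rescaling left 14 against 12. After rescaling the counts at 0 h were 8 higher and 18 lower, and at 12 and 24 h they were the same as before. At 0 h 19 of 26 members stood in the order BA, BF, Cont from high to low, and at 24 h 20 stood in the order BF, BA, Cont. This exchange of BA and BF rests on 1 column on each side at each hour and was not tested.

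Few members differed 2-fold between BF and BA at any hour. There were 0 at 0 h (0.426% of all genes higher and 1.39% lower) and 0 at 12 h (1.16% higher and 0.757% lower). At 4 h HMGCS1, NSDHL and MVD were at least 2-fold higher in BF (2.39%) and STARD4 at least 2-fold lower (2.33%), all in the hour of the BA column in which ALB stood apart. At 24 h TM7SF2 was at least 2-fold higher in BF (0.887%), by 1.05 on the log2 scale, and 0 were lower (0.969%). After rescaling the counts past 2-fold were 1 at 4 h and 0 at 24 h, for which the share of all genes is not given.

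**Figure D5:**
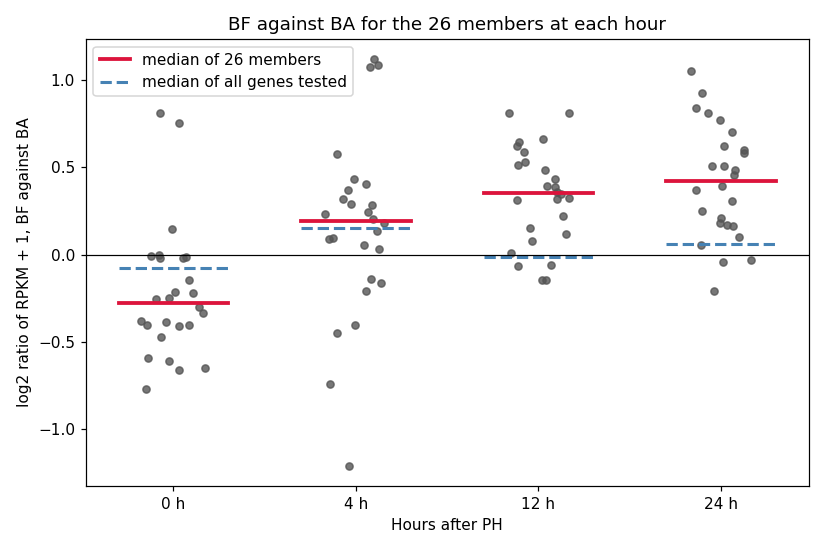
Log2 ratio of RPKM + 1 in BF against BA at 0, 4, 12 and 24 h after PH, with 1 point per member (26), the members' median as a solid bar and the median of all 8459 genes as a dashed bar. The members' median goes from -0.28 at 0 h to 0.42 at 24 h while the dashed bar stays between -0.08 and 0.15.

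As a description of how alike the members ran, each was correlated over the 12 columns with the mean log2 level of the other enzymes. The columns of a prefix and of an hour share treatment and normalization, so no p is given. CYP51 was closest to the common course (r = 0.99), followed by HSD17B7 (0.95), FDFT1 (0.95), ACAT2 (0.94) and IDI1 (0.94). Enzymes that ran apart were SQLE (0.61), LBR (0.15) and GGPS1 (-0.18). Of the regulators SCAP was at r = 0.87, SREBF2 at 0.71, INSIG1 at 0.54 and INSIG2 at -0.09. SOAT2 was at 0.30, STARD4 at 0.10 and SOAT1 at -0.05. The genes away from the common course are thus a branch enzyme, a nuclear membrane protein, the sterol carrier, both esterifying enzymes and INSIG2, with SQLE and INSIG1 between.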

How the data were processed

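Whole-liver RNA libraries (TruSeq) had been sequenced, and the authors deposited 1 table of RPKM values with 2 decimals, each the mean of 2 runs. The submitters' processing notes name CASAVA, Bowtie 0.12.2 and the builds rn4 and mm8, without saying how each was used. How the runs were weighted is not given in the sources used here, and read depth is unknown. The 12 columns were grouped by title prefix and hour.

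Of 14692 genes, 1 had no value and 2303 were at 0 throughout. The 8459 genes that averaged 1 RPKM or more were fitted with limma 3.58.1 (R 4.3.3, variance trend) on log2(RPKM + 1), additive in prefix and hour, two-sided, with Benjamini-Hochberg adjustment over all genes. Adding 1 RPKM understates changes of weakly expressed genes. The study states no test per gene. Ratios between single columns had no test, and a log2 ratio of at least 1 in size was counted as 2-fold. Nothing pairs the columns beyond prefix and hour. The p-values rest on departure of the columns from the additive fit, which holds any real difference in course, and not on spread between rats.

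Members and lists were chosen with earlier results of these data known. All members found are named, and from each of 6 other lists at most the 4 genes with the largest mean size of the 6 fitted contrasts, of which 2 are not reported here. SCD is named besides these because its direction at 4 h was opposite to that of SCD1, and it was chosen after its values were seen. The markers named, CTRB1, CELA1 and ALB, were chosen after their values were seen. Alternatives were a pseudocount of 0.1 RPKM, no filter, columns rescaled on the median gene, no variance trend, and leaving out the BF column at 12 h, a prefix or an hour. Leaving out the BA column at 4 h was chosen after seeing the data. The fit and the ratios were tested on simulated data. Promoter windows came from RefSeq (GRCr8), matched by symbol or synonym, used for sequence and gene names only. Python 3.11.15, numpy 2.4.6, pandas 2.3.3 and matplotlib 3.10.9 were used.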

Additional observations from a re-analysis of the deposited data

Results flagged for a closer look

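A pair of members moved in opposite directions after PH in different prefixes, each by at least 0.5 on the log2 scale against the 0 h column. SQLE, squalene epoxidase, was at 59.58 RPKM at 12 h against 39.2 RPKM at 0 h in Cont (0.59) and at 57.5 against 138.5 RPKM in BA (-1.25), a difference of 1.85. At 12 h the Cont and BA columns were thus close to each other, and they were far apart at 0 h. INSIG2 was at 122 RPKM at 24 h against 81.7 RPKM at 0 h in BA (0.57) and at 155 against 309 RPKM in Cont (-0.99), a difference of 1.56. Here too the 0 h columns differed more than the 24 h columns did. Each value compares 1 column with 1 column, and neither difference was tested.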

How the results depend on the processing

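Of the recalculated member changes that had been called, 284 kept direction and side of the threshold, 92 kept direction and lost the call, and 0 turned direction. Calls of BF against Cont were the least stable, with 27 kept and 43 lost. Counts of members that changed by over 1.5 times were these. After rescaling, calls at 24 h against 0 h were 12 in place of 6, and over all genes 2322 in place of 3056. In the same setting the members past 2-fold were 10 in place of 4 for BA against Cont at 4 h, 1 in place of 4 for BF against BA at 4 h, 7 in place of 4 for BA against Cont at 24 h and 0 in place of 1 for BF against BA at 24 h. Rescaled members past 2-fold at 24 h against 0 h were 7 in place of 3 in Cont, 15 in place of 9 in BA and 2 in place of 1 in BF. The shares of all genes past 2-fold after rescaling are not given beside these counts. For BF against Cont, 0 members were called without the filter on low values, 0 without the BF column at 12 h and 4 without the BA column at 4 h, in place of 7. In that comparison the smallest adjusted p-values were already near the threshold.

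With each prefix left out in turn, calls ranged from 8 to 12 at 4 h, from 9 to 14 at 12 h and from 2 to 3 at 24 h. In these fits 2155 to 2499 of all 8459 genes were called at 4 h. At 12 h 789 to 1821 were, and at 24 h 752 to 2583. With each hour left out, the members' calls ranged from 0 to 4 for BF against Cont. They stayed at 0 for BA against Cont and for BF against BA. The cause of these changes was not tested, and each of these fits also had fewer columns. The labels give no replicate numbers to pair by, and the fit with hour as a term already compares the prefixes within each hour. Unknown read depth leaves the counting error of every level unknown, which weighs most on SOAT1 and GGPS1, the least abundant members.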

Other observations

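Genes near the cholesterol pathway were read in the same limma fit, and in each of the 6 lists 0 genes were called between prefixes. Of all genes, 0.319% were called higher and 0.485% lower in BF against Cont. In either direction 0.0709% were called in BA against Cont and 0.0118% in BF against BA. The 0 calls thus show nothing particular to these lists. An uncalled difference could be large, as for SCD1 in BF against Cont (-2.29 ± 0.46, SE, limma adjusted p = 0.06). Over all genes 12.9% rose and 32.4% fell at 4 h, 9.03% rose and 22.5% fell at 12 h, and 30.6% rose and 5.54% fell at 24 h, and a list whose count lies near these shares shows nothing particular to it. Of 14 genes of fatty acid synthesis and other SREBP1 targets tested, 3 rose and 5 fell at 4 h, 0 rose and 8 fell at 12 h, and 0 rose and 3 fell at 24 h, with the count at 4 h near the share of all genes. SCD1, a stearoyl-CoA desaturase, rose at 4 h by 1.69 ± 0.53 (SE, limma adjusted p = 0.028), from 50.4 to 98.7 RPKM in Cont, from 24.1 to 123 RPKM in BA and from 4.21 to 17.3 RPKM in BF. SCD, another stearoyl-CoA desaturase entry, went the other way at 4 h (-0.57 ± 0.18, SE, limma adjusted p = 0.031). It differed little in BF against Cont (0.008). FADS2, a fatty acid desaturase, fell at 12 h (-3.46), from 469 to 28.9 RPKM in Cont, from 287 to 20.3 RPKM in BA and from 224 to 34.7 RPKM in BF. THRSP, a regulator of fatty acid synthesis, changed by -2.83 at 12 h and -2.64 at 24 h. ACSS2, which makes acetyl-CoA from acetate, was called lower at 12 h (-1.95) and 24 h (-1.12).

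Among 8 genes of LXR and sterol export, 1 rose and 4 fell at 4 h, 0 rose and 3 fell at 12 h, and 0 changed at 24 h, on few genes and with 1 of 8 rising near the share of all genes. NR1H3, which encodes LXR alpha, went from 111 to 52.8 RPKM between 0 and 4 h in Cont, from 117 to 31.8 in BA and from 119 to 59.7 in BF, a change of -1.29 ± 0.16 (SE, limma adjusted p = 0.0006). ABCG5, of the canalicular sterol exporter, was at 30.7 RPKM in Cont and at 4.00 and 6.12 RPKM in BA and BF at 0 h, and it fell at 12 h (-1.55), when the columns held 3.59, 2.08 and 2.20 RPKM. LPCAT3 was called lower at 4 h (-0.50) and 12 h (-0.80). ABCG8, the partner of ABCG5, was at 5.17 RPKM in Cont and 0.70 and 0.67 RPKM in BA and BF at 0 h, with no call.

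The isoprenoid branch, which uses farnesyl and geranylgeranyl diphosphate for purposes other than sterols, had most of its calls at 24 h. Of 10 genes tested, 3 rose and 1 fell at 4 h, 1 rose at 12 h, and 6 rose and 0 fell at 24 h, among them the prenyltransferase subunits FNTB (1.03) and RABGGTB (0.74). Of all genes 12.9%, 9.03% and 30.6% rose at these hours.

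Of 7 genes of SREBP cleavage and sterol-regulated degradation, 1 rose and 2 fell at 4 h, 2 rose and 2 fell at 12 h, and 2 rose at 24 h, near the shares of all genes at 4 and 24 h. UBE2G2, a ubiquitin-conjugating enzyme of that degradation, went from 27.1 to 119 RPKM between 0 and 4 h in Cont, from 36.8 to 112 in BA and from 23.2 to 105.5 in BF, with no overlap between the hours. The share of all genes without such overlap was not counted. ERLIN1 fell at 4 h (-1.11) and 12 h (-0.94), and MBTPS1, the protease that first cuts SREBP, fell by 0.39 on the log2 scale at each of these hours. In sterol traffic 4 of 9 genes fell at 4 h and 6 at 12 h, where 32.4% and 22.5% of all genes fell. At 24 h 1 of the 9, TMEM97, rose (0.99), where 30.6% of all genes rose. LIPA, the lysosomal lipase, was called lower at 4 h (-1.13) and 12 h (-1.24), and SCARB1 at 12 h (-0.99).

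Of the 4 electron donors of the sterol enzymes, 1 rose and 1 fell at 4 h, 3 fell at 12 h and 1 was still lower at 24 h. Of all genes 12.9% rose and 32.4% fell at 4 h, and 22.5% and 5.54% fell at 12 and 24 h. With 4 genes, the counts at 4 h show nothing particular to them. POR, the reductase that serves CYP51 and SQLE, went over 0, 4 and 12 h from 168 to 399 and 61.6 RPKM in Cont, from 94.1 to 159 and 27.8 RPKM in BA and from 73.1 to 176 and 51.8 RPKM in BF. It rose at 4 h (1.08 ± 0.27, SE, limma adjusted p = 0.01) and fell at 12 h (-1.22). CYB5R3 was called lower at 4, 12 and 24 h (-0.83, -1.45 and -0.76) and CYB5A at 12 h (-1.20).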
